A study of Homo sapiens with 3 samples.

Results

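The NRF2 antioxidant pathway was followed through 9 genes in TK-10, an established line of human renal cell carcinoma, on 3 arrays. The genes were the transcription factor NFE2L2, its repressor KEAP1, and the target genes HMOX1, NQO1, GCLC, GCLM, TXNRD1, SRXN1 and OSGIN1. They were chosen by name, and every probe whose RefSeq accession belonged to 1 of them was taken. Each gene had 1 probe, so the set is 9 of the 58201 gene probes on the array and 9 of the 22439 genes that could be named. There was 1 array per condition and none was repeated, so no test across arrays was possible and no difference has a replicate check. The vehicle cells had received 0.1% DMSO. According to the labels, the treated cells had received cordyceps at 750 μg/ml or sunitinib, a receptor tyrosine kinase inhibitor, at 10 μM. All cells were harvested at 48 h. The paper names pure cordycepin, at a lower concentration, where the labels name cordyceps, and does not describe the sunitinib array. The arrays are called here by their labels, and nothing in the files decides between these agents. Per the labels, the medium of all 3 conditions, vehicle included, held 10% serum and had been supplemented with zinc sulfate (16.7 μM), troglitazone (10 μM) and nicotinamide (10 mM), additives that the paper's culture methods do not name.

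NRF2, the protein of NFE2L2, is a transcription factor that activates genes against oxidants and electrophiles. In resting cells KEAP1 binds it and hands it to a CUL3 ubiquitin ligase for degradation, and reactive compounds that modify KEAP1 let NRF2 accumulate. It then pairs with a small MAF protein and binds the antioxidant response element, whose core reads TGACNNNGC. Because NRF2 is controlled largely through protein stability, its own mRNA is a poor measure of its activity, and the target genes are usually read instead. In kidney cancer the pathway is known for mutations of its members in some tumors.

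A signal is given as the processed intensity on a linear scale, and a level as its log2 after division by the array's own 75th percentile, which was 165 on the vehicle array, 138 on the cordyceps array and 78.2 on the sunitinib array. Each probe's error is the one Feature Extraction reports for the spot, and the 95% limit of a ratio is 1.96 times the combined error of its 2 arrays. These errors cover measurement within an array and not the difference between cultures. A probe was compared when it was well above background, by Agilent's criterion, on at least 1 of the 2 arrays. No array held a saturated spot, and all 3 lay on 1 slide and in 1 scan. A bright streak of 581 spots on the cordyceps array held 0 of the 27 spots of the 9 genes. Of 11 renal epithelial markers with a probe, 10 were well above background on all 3 arrays, including PAX8, PAX2 and KRT18, and CA9 was on none. Of 11 markers of other cell types, 4 (CD3E, PECAM1, ALB and HBB) were well above background on no array and 6 (CD14, CD79A, CDH5, VWF, COL1A1 and PDGFRB) on all 3. For PTPRC some probes passed on the vehicle and sunitinib arrays. Unscaled signals of CD14 ran from 116 (sunitinib) to 693 (vehicle), and those of COL1A1 from 385 to 5308. Among the renal markers, signals of CDH6 were 913 (vehicle), 147 (cordyceps) and 446 (sunitinib), and those of CDH16 were 1340, 238 and 452. The part of these markers in the results was not tested. Since levels are relative to the rest of the RNA, fewer cells and less RNA per cell cannot be told apart.

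SRXN1, HMOX1 and TXNRD1 were higher on the cordyceps array than on the vehicle array, by just under 2-fold, 1.61-fold and 1.60-fold, and the other 5 measured genes were within technical error at this scaling. On the sunitinib array at this scaling, NQO1 and GCLC were higher and TXNRD1, HMOX1 and GCLM lower than on the vehicle array, all by less than 2-fold. NQO1 and GCLC were not higher beyond technical error under some other treatments of the data. Of all measured probes, 27.1% passed their own 95% limit on the cordyceps array (14.2% higher, 12.9% lower). On the sunitinib array 45.4% did (25.6% higher, 19.8% lower). Between the treated arrays, HMOX1 and TXNRD1 were each 2.29-fold higher with cordyceps than with sunitinib. NFE2L2 itself gave no usable signal.

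**Figure D1:**
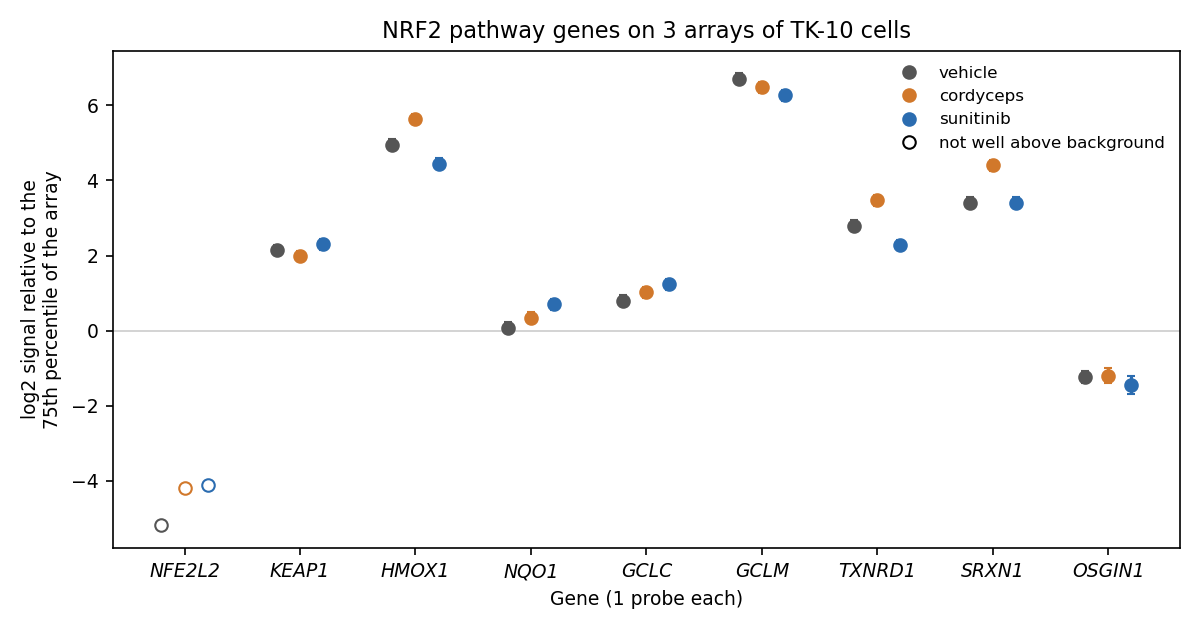
Level of each of the 9 genes on the 3 arrays, as log2 signal relative to the 75th percentile of the array, with bars for the error reported by Feature Extraction (1 array per condition). HMOX1, TXNRD1 and SRXN1 are highest on the cordyceps array, NQO1 and GCLC are highest on the sunitinib array, and the open points of NFE2L2 were not well above background on any array. Heights of different genes are not comparable, because each is a different probe.

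Among the regulators, the probe for NFE2L2 had signals of 4.51 on the vehicle array, 7.58 on the cordyceps array and 4.50 on the sunitinib array. None was well above background, for which the lowest signals were 18.2, 30.2 and 18.3, so no ratio is given and the mRNA of NRF2 was not measured by this probe. KEAP1, the repressor, was printed in 10 spots per array. The spots ranged from 691 to 795 on the vehicle array (median 728), from 517 to 621 on the cordyceps array (median 542) and from 359 to 409 on the sunitinib array (median 385). After scaling, the mean level was 2.14 on the vehicle array, 1.99 on the cordyceps array and 2.30 on the sunitinib array, and the ranges of spots on the treated arrays each overlapped that of the vehicle array, but through 1 spot only (the highest cordyceps spot and the highest vehicle spot). The log2 ratio over vehicle was −0.16 for cordyceps and 0.15 for sunitinib, both within the 95% limit of 0.40, and both turned sign when the arrays were scaled to their medians (0.06 and −0.18).

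HMOX1 encodes heme oxygenase 1, which breaks heme down to biliverdin, carbon monoxide and iron. Its probe was also printed in 10 spots, of which 1 was left out as an outlier on the vehicle array. The spots ranged from 4894 to 5293 on the vehicle array (median 5134), from 6641 to 7061 on the cordyceps array (median 6869) and from 1672 to 1749 on the sunitinib array (median 1709). As levels these were 4.89 to 5.01, 5.59 to 5.68 and 4.42 to 4.48, so the 3 arrays did not overlap, with cordyceps highest and sunitinib lowest. The SD between spots was 0.039, 0.029 and 0.023 on the log2 scale, far below the differences between arrays, but the spots of an array share 1 RNA sample and are not replicates of a condition. The log2 ratio over vehicle was 0.69 for cordyceps and −0.50 for sunitinib, each with a 95% limit of 0.40.

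**Figure D2:**
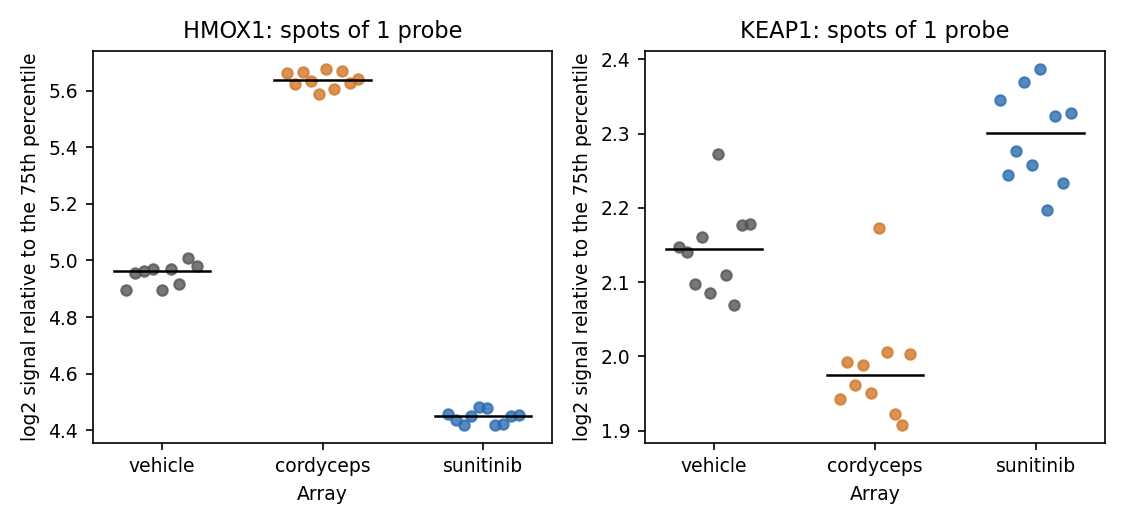
Level of each spot of the HMOX1 probe (left) and the KEAP1 probe (right) on the 3 arrays, as log2 signal relative to the 75th percentile, with the median of the spots as a line. The axes do not start at 0 and differ between the panels. The HMOX1 spots form 3 separate bands, at 4.89 to 5.01, 5.59 to 5.68 and 4.42 to 4.48, whereas the KEAP1 spots of each treated array overlap those of the vehicle array through 1 spot.

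Of the genes of the thioredoxin system, TXNRD1 encodes the cytosolic thioredoxin reductase, which passes electrons from NADPH to thioredoxin. Its signal was 1141 on the vehicle array, 1532 on the cordyceps array and 380 on the sunitinib array, at levels of 2.79, 3.47 and 2.28. The order was that of HMOX1. The log2 ratio over vehicle was 0.68 for cordyceps and −0.51 for sunitinib, again past the 95% limit of 0.40 in both. The gene has several transcripts, and the probe was designed on NM_001261445, so other transcripts may be read in part or not at all. SRXN1 encodes sulfiredoxin, which restores peroxiredoxins that have been oxidized too far. Its signal was 1740 on the vehicle array, 2914 on the cordyceps array and 832 on the sunitinib array, at levels of 3.40, 4.40 and 3.41. Only the cordyceps array stood apart. The log2 ratio of cordyceps over vehicle was 1.00, with a 95% interval from 0.60 to 1.40, and it lay just below the 2-fold limit. It passed that limit with the arrays scaled to their medians (1.22) or with the bright streak left out (1.04). The spot of SRXN1 lay outside the streak, so both changes only rescaled the arrays. The ratio of sunitinib over vehicle was 0.01 on the log2 scale, with an interval from −0.39 to 0.41.

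GCLC and GCLM encode the catalytic and the modifier subunit of glutamate-cysteine ligase, which catalyzes the first step of glutathione synthesis. GCLC had signals of 285 (vehicle), 279 (cordyceps) and 184 (sunitinib), at levels of 0.79, 1.02 and 1.23. GCLM had a signal of 17247, 12297 and 6047, respectively, at levels of 6.71, 6.48 and 6.27. At this scaling the levels of the subunits thus ran in opposite order over the 3 arrays. Their signals before scaling both fell from vehicle to cordyceps to sunitinib. For sunitinib over vehicle the log2 ratio was 0.44 for GCLC and −0.44 for GCLM, both past the 95% limit, which was 0.41 for GCLC and 0.40 for GCLM. For cordyceps over vehicle it was 0.22 and −0.23, both within that limit. For sunitinib GCLC was within the limit with the median scaling (0.11) and with normexp (0.21), and −0.64 in the unscaled values, where all probes were shifted down. For cordyceps GCLC passed the limit with the median scaling (0.45) and GCLM with quantile normalization (−0.42) and in the unscaled values (−0.49).

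NQO1 encodes a quinone reductase that uses both NADH and NADPH. Its signal was 173 on the vehicle array, 175 on the cordyceps array and 127 on the sunitinib array, at levels of 0.07, 0.34 and 0.70. It was highest on the sunitinib array after scaling, with a log2 ratio of 0.63 over vehicle and a 95% limit of 0.42, but within that limit with the median scaling (0.29) and normexp (0.31) and −0.45 without scaling. For cordyceps the ratio was 0.27, within its limit of 0.42, and 0.49 with the median scaling. OSGIN1, a stress-induced growth inhibitor, had signals of 69.3 on the vehicle array, 59.7 on the cordyceps array and 28.5 on the sunitinib array. Its levels of −1.25, −1.21 and −1.45 did not differ beyond technical error, with log2 ratios over vehicle of 0.04 (limit 0.51) and −0.21 (limit 0.56).

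Counted over the 8 measured genes, 0 were past 2-fold on the cordyceps array, where 6.10% of all 26872 compared probes were past 2-fold in either direction (3.60% higher, 2.49% lower). On the sunitinib array 0 of the 8 were past 2-fold, against 13.8% of 27147 probes (8.08% higher, 5.67% lower). By the 95% limit, 3 of 8 were higher and 0 lower on the cordyceps array. Of the 21600 probes measured on both arrays, 27.1% passed their own limit (14.2% higher, 12.9% lower). On the sunitinib array 2 of the 8 were higher and 3 lower, where 45.4% of 21623 probes passed (25.6% higher, 19.8% lower). The median log2 ratio of the 8 genes was 0.25 for cordyceps and −0.10 for sunitinib, beside 0.00 and 0.05 for all measured probes. The log2 ratio of SRXN1 on the cordyceps array was above that of 96.4% of all compared probes, HMOX1 above 93.3% and TXNRD1 above 93.1%. On the sunitinib array TXNRD1 was above 16.9% and HMOX1 above 17.2%. Both comparisons use the same vehicle array, so an error of that array would move both.

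**Figure D3:**
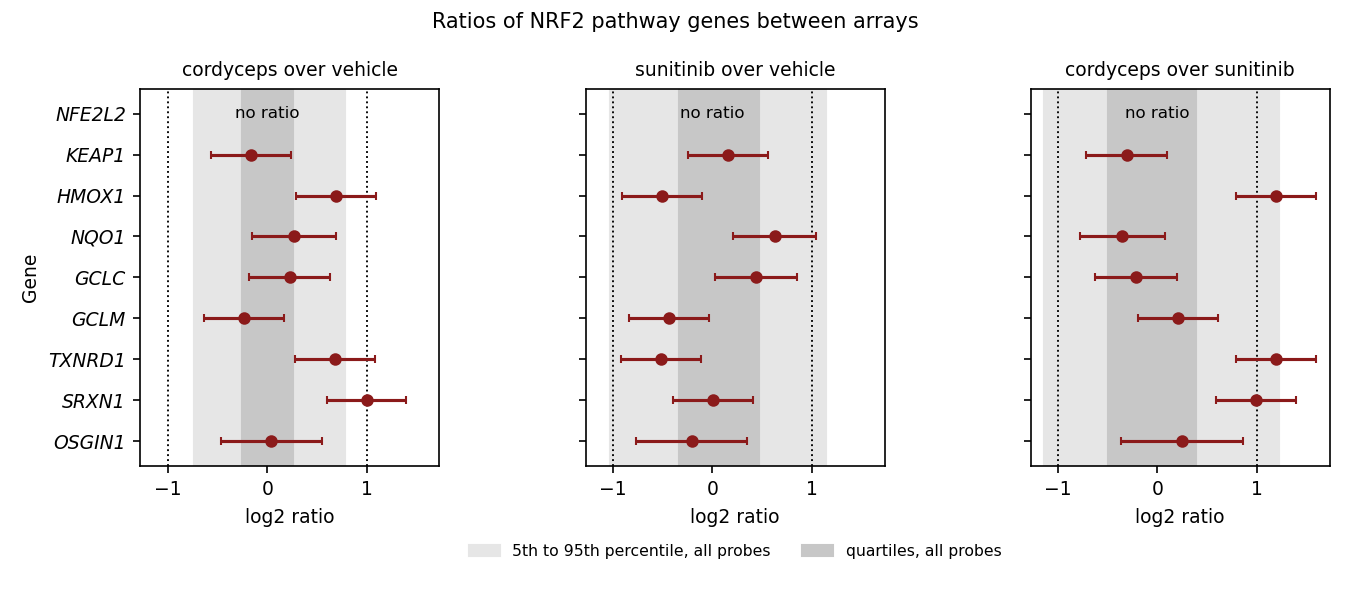
Log2 ratio of each gene between 2 arrays, with bars for the 95% limit of the combined technical error, over the quartiles (dark band) and the 5th to 95th percentile (light band) of all probes measured on both arrays. Dotted lines mark 2-fold. SRXN1 lies at the 2-fold line for cordyceps over vehicle, no gene passes it for sunitinib over vehicle, and HMOX1 and TXNRD1 pass it for cordyceps over sunitinib, both at 1.19.

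Set directly against each other, the treated arrays do not involve the vehicle array. HMOX1 and TXNRD1 were past 2-fold, each with a log2 ratio of cordyceps over sunitinib of 1.19 and a 95% limit of 0.40, and 18.0% of 23955 compared probes were past 2-fold in either direction (8.99% higher, 8.96% lower with cordyceps). This comparison was added after the data were seen. SRXN1 was close to the 2-fold limit, at 0.99, and ran from 0.85 with quantile normalization to 1.81 without scaling. By the 95% limit 3 of the 8 measured genes were higher and 0 lower with cordyceps. Of the 20301 probes measured on both treated arrays, 49.1% passed their own limit (22.2% higher, 26.8% lower with cordyceps). The remaining 5 genes lay between −0.35 (NQO1) and 0.25 (OSGIN1), within their limits. HMOX1 and TXNRD1 stayed past 2-fold under all 9 alternatives, from 1.02 and 1.08 with quantile normalization to 2.01 for each without scaling. The alternatives that changed only the filter on dim probes could not move them, since both were well above background on every array.

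Scaling to another percentile, or none, shifted the ratios of all genes by 1 amount, whereas quantile normalization and normexp moved genes unequally. With each array scaled to its median, the median log2 ratio of all measured probes was 0.22 for cordyceps and −0.28 for sunitinib over vehicle, and in the unscaled values it was −0.25 and −1.02. In the unscaled values all 8 measured genes were lower on the sunitinib array, with TXNRD1 the lowest at −1.59 and NQO1 the least changed at −0.45. Set against the median of −1.02, TXNRD1, HMOX1, GCLM, OSGIN1 and SRXN1 lay below it and NQO1, GCLC and KEAP1 above it. These positions are no separate check, because leaving out the scaling shifts every ratio and the median alike. HMOX1, TXNRD1 and SRXN1 were higher on the cordyceps array under all 9 alternatives. HMOX1, TXNRD1 and GCLM were lower on the sunitinib array under all 9, of which the median scaling and the unscaled values lower every gene there by construction. The alternatives that changed only the filter on dim probes could not move the 8 measured genes, which were well above background on every array. Leaving out the streak could not move sunitinib over vehicle. Those outcomes were fixed in advance and are no check.

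**Figure D4:**
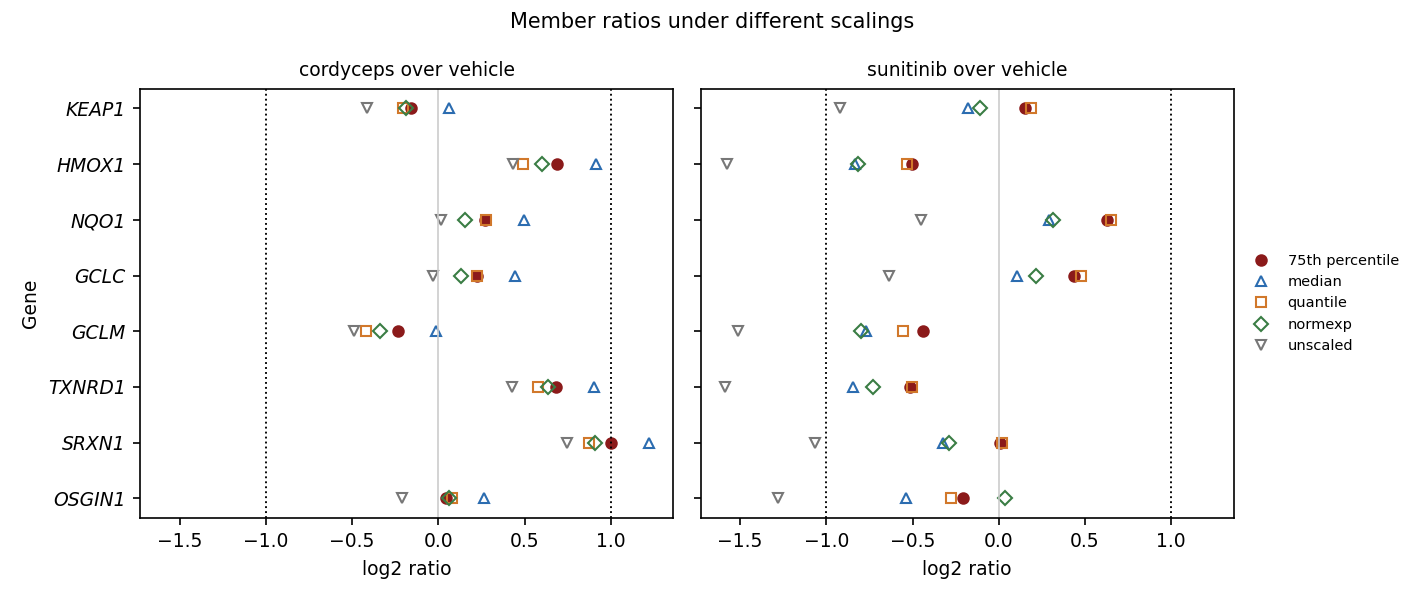
Log2 ratio of the 8 measured genes over vehicle with the arrays scaled to the 75th percentile (filled) and under 4 other treatments (open), with dotted lines at 2-fold. HMOX1, TXNRD1 and SRXN1 stay above 0 for cordyceps throughout, and for sunitinib the unscaled values lie furthest to the left, from −1.59 to −0.45.

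Promoter sequence from RefSeq (GRCh38.p14) was matched for 8 of the 9 genes, all but HMOX1, in 11 windows of 300 bases that run from 250 bases before to 50 bases after a start site. The core of the antioxidant response element, TGACNNNGC, was searched on both strands. It can overlap the AP-1 motif TGACTCA. The core was found in 4 of the 11 windows, those of GCLM, TXNRD1 (both windows) and KEAP1 (1 of 2), and in 13.3% of all 35116 windows. TGACTCA was found in 1, that of OSGIN1 at position −97, and in 4.95% of all windows. The 4 windows with the core are shown, 5′ to 3′ on the strand of the gene, because they let the letters around each match be compared between TXNRD1, GCLM and the repressor. Capitals mark the core on either strand.
GCLM, chr1:93909381-93909680, minus strand: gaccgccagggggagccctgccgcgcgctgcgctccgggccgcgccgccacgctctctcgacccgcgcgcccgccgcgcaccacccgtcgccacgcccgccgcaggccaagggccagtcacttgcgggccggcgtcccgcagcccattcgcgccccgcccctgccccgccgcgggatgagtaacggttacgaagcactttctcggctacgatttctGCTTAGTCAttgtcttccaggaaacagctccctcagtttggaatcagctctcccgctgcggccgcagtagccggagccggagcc
TXNRD1, chr12:104215529-104215828, plus strand: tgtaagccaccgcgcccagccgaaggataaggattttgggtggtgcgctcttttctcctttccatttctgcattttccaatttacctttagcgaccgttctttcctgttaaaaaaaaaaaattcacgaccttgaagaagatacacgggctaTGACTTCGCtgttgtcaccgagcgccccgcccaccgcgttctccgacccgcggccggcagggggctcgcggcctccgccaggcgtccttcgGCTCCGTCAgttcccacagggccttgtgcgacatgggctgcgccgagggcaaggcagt
TXNRD1, chr12:104286782-104287081, plus strand: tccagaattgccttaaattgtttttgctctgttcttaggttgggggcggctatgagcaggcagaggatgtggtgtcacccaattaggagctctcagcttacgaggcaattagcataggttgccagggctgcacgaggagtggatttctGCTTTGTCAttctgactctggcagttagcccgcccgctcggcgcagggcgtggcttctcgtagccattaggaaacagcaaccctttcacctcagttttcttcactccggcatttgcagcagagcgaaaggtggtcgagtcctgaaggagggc
KEAP1, chr19:10502722-10503021, minus strand: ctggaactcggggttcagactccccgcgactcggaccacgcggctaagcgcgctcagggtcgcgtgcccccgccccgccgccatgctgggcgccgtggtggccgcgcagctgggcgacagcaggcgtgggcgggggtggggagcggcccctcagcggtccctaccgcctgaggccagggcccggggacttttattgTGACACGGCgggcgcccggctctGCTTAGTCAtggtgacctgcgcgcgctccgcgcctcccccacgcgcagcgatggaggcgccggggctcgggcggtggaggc
Counted from the start site, the first base of the match lay at −34 for GCLM, at −99 and −8 in the first window of TXNRD1 and at −102 in the second, and at −54 and −31 for KEAP1. The matches of GCLM and KEAP1 at −34 and −31 share 1 sequence, TGACTAAGC on the minus orientation of the window.  A match is a description of letters and not a site shown to be bound. The windows of SRXN1, NQO1, GCLC and NFE2L2 held neither motif, which says nothing of elements further away.

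The wider pathway was read from 6 lists with 105 gene names, of which 100 had a probe. By the brightest probe of each gene, 4 of 94 compared genes (4.26%) were past 2-fold on the cordyceps array, 2 in each direction, where 5.70% of all 14780 genes were (2.96% higher, 2.75% lower). On the sunitinib array 9 of 95 were higher and 7 lower (16.8%), where 12.9% of all 14905 genes were past 2-fold (6.48% higher, 6.44% lower). A gene whose bound did not exceed 1-fold was counted at 0 in the medians. The median log2 ratio of the lists together was 0.00 for cordyceps and 0.01 for sunitinib, beside 0.00 for all compared genes in both. The split depended on the scaling. For sunitinib it was 4 higher and 12 lower with the median, 6 and 7 with quantile normalization, 4 and 6 with normexp, and 1 and 50 in the unscaled values. For cordyceps it was 4 and 0 with the median, 0 and 1 with normexp, and 0 and 4 in the unscaled values.

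Among 15 compared partners and regulators of NRF2, MAFF was the only one past 2-fold on both treated arrays. MAFF encodes a small MAF protein, with which NRF2 can pair. Its signal was 859 on the vehicle array, 1530 on the cordyceps array and 147 on the sunitinib array. The log2 ratio over vehicle was 1.09 for cordyceps and −1.48 for sunitinib. For cordyceps it was under 2-fold with normexp (0.91) or without scaling (0.83), and for sunitinib it was past 2-fold under every alternative. SQSTM1 encodes p62, which binds KEAP1 and directs it to autophagy. It was 1.17 for sunitinib on the log2 scale, but its signals of 10315 on the vehicle and 11012 on the sunitinib array were alike before scaling, and it was under 2-fold with the median, quantile, normexp and unscaled values. Its ratio for cordyceps was 0.54, as was that of NFE2L1, a relative of NRF2. NFE2L3, a further relative, was −0.85 for sunitinib. The median of the list was −0.02 for cordyceps and −0.28 for sunitinib.

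Of 26 compared genes of glutathione supply and use, 0 were higher and 1 lower by more than 2-fold on the cordyceps array, and 2 higher and 3 lower on the sunitinib array. CHAC1, which degrades glutathione and is known as an ATF4 target, was lower on both. Its signal was 1092 on the vehicle array, 429 on the cordyceps array and 138 on the sunitinib array, with log2 ratios of −1.09 and −1.91. The former was −0.87 with the median scaling. GPX3, a secreted glutathione peroxidase made mainly by the kidney, was 3.45 for sunitinib, from a signal of 218 against 42.1, and was 2.08 or more under every alternative. Its second probe was not well above background on the vehicle array. GSTA4, a glutathione transferase, was 1.02 for sunitinib and −0.06 without scaling, and was named after its values were seen. GLRX2, a mitochondrial glutaredoxin, was −1.16 for sunitinib. ABCC4, an efflux transporter, was at least 2.68-fold lower there, from its own signal of 21.3, which was not well above background, against 120 on the vehicle array. With normexp this log2 bound was only −0.40. For cordyceps the next largest ratios were those of GLRX, a cytosolic glutaredoxin (0.80), and MGST2 (−0.59). GLRX was also 0.80 for sunitinib, although its signal before scaling was 1867 there against 2262 on the vehicle array. MGST2 was 0.07 for sunitinib. The list medians were 0.04 and −0.11.

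In the thioredoxin, peroxiredoxin and dismutase system, 0 of 17 compared genes were past 2-fold on the cordyceps array and 1, SOD3, was lower on the sunitinib array. SOD3 encodes the extracellular superoxide dismutase and had a log2 ratio of −1.14, which was −0.83 with normexp. For cordyceps the largest ratios were those of CAT, which encodes catalase (−0.76), SESN2 (−0.71) and PRDX6 (0.53). PRDX6 is a peroxiredoxin, and its second probe gave 0.45. For sunitinib SESN2 was −0.74 and SESN1 0.63, the latter turning to −0.44 without scaling. The list had a median of 0.00 for cordyceps and −0.08 for sunitinib.

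Of 9 genes of NADPH supply, 0 were past 2-fold on the cordyceps array and 2 were higher on the sunitinib array. TKT, which encodes transketolase, was 1.14 and PGD, of the pentose phosphate pathway, 1.01 on the log2 scale. Their signals hardly differed before scaling, at 47084 and 49193 for TKT and at 446 and 428 for PGD on the vehicle and sunitinib arrays, and both were under 2-fold with the median (TKT 0.81), with normexp (TKT 0.77) and in the unscaled values (PGD −0.06). IDH1, a cytosolic isocitrate dehydrogenase, was 0.93 for sunitinib, or −0.14 without scaling, and 0.58 for cordyceps. PGD was −0.31 and IDH2 −0.27 for cordyceps. For sunitinib IDH2 was −0.93, and of the 9 genes 5 were above 0 and 4 below. The list medians were −0.10 and 0.28.

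Heme and iron genes had the highest list medians, 0.36 over 10 genes for cordyceps and 0.50 over 11 genes for sunitinib. On the cordyceps array 1 gene was more than 2-fold higher and 0 lower, and on the sunitinib array 4 were higher and 0 lower. FTL, the ferritin light chain, which stores the iron that heme oxygenase releases, was the gene on the cordyceps array. Its 3 probes gave log2 ratios from 1.09 to 1.17 for cordyceps and from 1.68 to 2.0 for sunitinib. The brightest had signals of 12803 (vehicle), 22982 (cordyceps) and 19423 (sunitinib), so it was higher on both treated arrays even before scaling. FTL was under 2-fold with normexp for cordyceps (0.99) and in the unscaled values (0.84 for cordyceps, 0.60 for sunitinib). Thus FTL was higher on the sunitinib array where HMOX1 was lower. FTH1, the ferritin heavy chain, was 1.08 for sunitinib, but 0.00 without scaling and 0.30 with quantile normalization. Ferritin genes have many processed pseudogenes, and whether the probes read these too was not tested. SLC40A1, which encodes the iron exporter ferroportin, had signals of 95.04 (vehicle), 47.9 (cordyceps) and 178 (sunitinib), with log2 ratios of −0.73 and 1.98. With normexp these were −0.22 and 1.24, and the latter was 0.91 without scaling. The cordyceps signal was near the lowest detected there, 30.2. HPX, the heme-binding hemopexin, was at least 4.21-fold higher on the sunitinib array and well above background on that array only. Its log2 bound of 2.07 was 1.01 with normexp and just under 2-fold without scaling. BLVRB, a biliverdin reductase, was 0.88 for cordyceps and 0.68 for sunitinib. Its signal before scaling was lower on the sunitinib array than on the vehicle array.

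Of 17 compared quinone, carbonyl and conjugating enzymes, 0 were higher and 1 lower by more than 2-fold on the cordyceps array, and 0 higher and 2 lower on the sunitinib array. ALDH1A1, a retinaldehyde dehydrogenase, was the lower gene on the cordyceps array, at −1.11, from a signal of 47.6 against 122, and −0.43 with normexp. On the sunitinib array it was at least 2.92-fold lower, from its own signal of 19.9, which was not well above background, and with normexp this log2 bound was only −0.37. AKR1B1, an aldose reductase, was −1.05 there. AKR1C1, which is widely used as a readout of NRF2, was −0.78 for cordyceps by its brightest probe and −0.55 by its second. NQO2 was 0.69 for cordyceps and 0.51 for sunitinib, where its signal before scaling was lower than on the vehicle array. The cordyceps signals of the AKR1C1 probes, 47.3 and 45.7, were near the lowest detected there, 30.2. With normexp the ratio of AKR1C1 was only −0.28. For sunitinib EPHX1 was 0.79 and ALDH3A2 0.76, and both were below 0 without scaling (−0.29 and −0.32). The second probe of ALDH3A2, on another transcript, gave 1.35, so the gene was past 2-fold by the mean of its probes (1.05) and not by the brighter one. The list medians were −0.09 and 0.36.

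**Figure D5:**
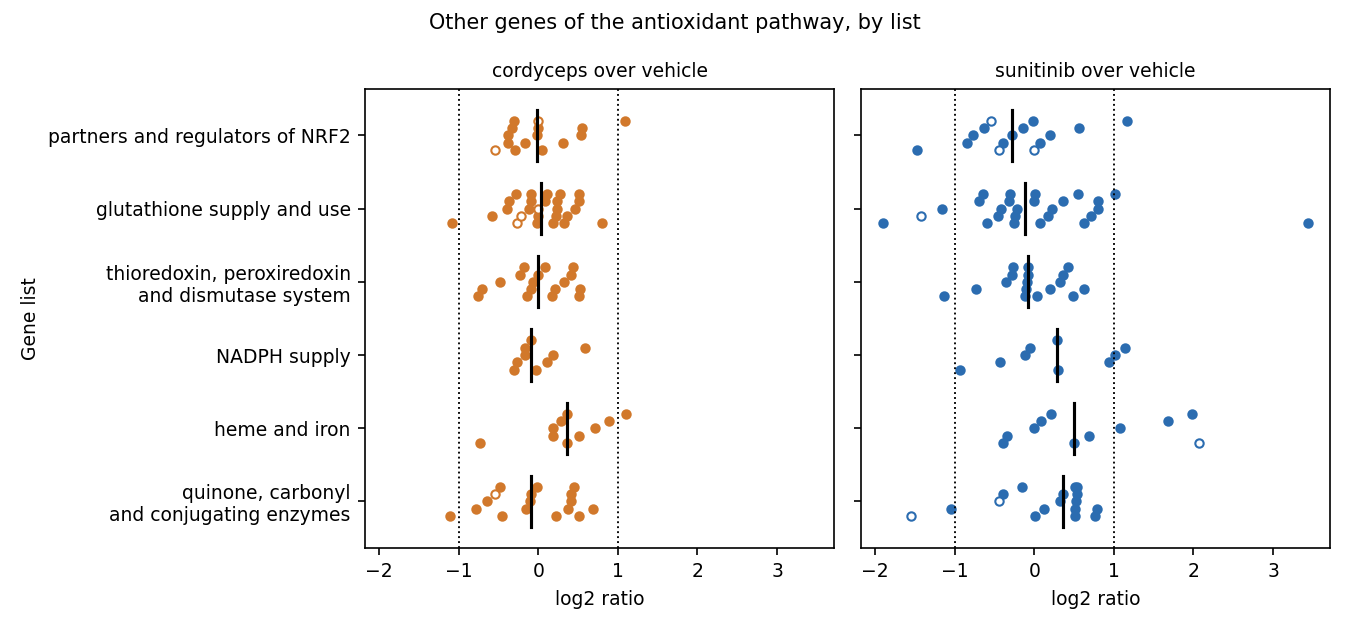
Log2 ratio of each compared gene of the 6 lists for cordyceps over vehicle (left) and sunitinib over vehicle (right), by the brightest probe of the gene, with the list median as a black line and dotted lines at 2-fold. Open points are bounds, drawn at 0 where the bound did not exceed 1-fold. Heme and iron genes have the highest medians, 0.36 and 0.50, and GPX3 is the rightmost point, at 3.45.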

How the data were processed

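Total RNA had been labelled with Cy3 and hybridised to single-colour Agilent arrays of 62976 spots, 1 array for each of 3 conditions. What the authors deposited is scanner output from Feature Extraction (11.5.1.1). Its processed signal is a background-subtracted intensity on a linear scale and has its own error. The header names hg19. A deposited table of the same intensity values per probe, not scaled between arrays, equalled the mean of the spots to within 0.01% for 99.87% to 99.92% of probes. The red over green ratio in the methods does not apply to these 1-channel arrays. The 2-fold limit is that of the methods.

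Control spots and outlier spots (63 to 121 per array) were removed and the remaining spots averaged per probe. Each log2 signal was set against its array's 75th percentile. A side not well above background was raised to the lowest signal that was, and such a ratio is a bound ("at least"). Probes were named by accession through RefSeq (GRCh38.p14, names only), which named 31104 of 58201 probes (53.4%). With 1 array per condition there is no test, and the number of arrays limits the precision. From each list, up to 3 genes with the largest ratio measured on both arrays, and bounds past 2-fold, are named for each comparison. The members and lists were chosen with earlier results of these data known. The streak holds all spots in 7 by 7 windows whose median log2 excess over the brighter of the other two arrays was above 1.0. Alternatives changed the scaling, the background correction (normexp, offset 50, on median spot signals), the filter on dim probes, outlier spots, the streak and the handling of several probes. The comparison of cordyceps over sunitinib was added after the data were seen. Python 3.11.15, numpy 2.4.6, pandas 2.3.3, R 4.3.3 and limma 3.58.1 were used, and the calculations were tested on simulated data.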

Additional observations from a re-analysis of the deposited data

How the results depend on the processing

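Of 72 values per comparison for the 8 measured genes under 9 alternatives, 69 kept their direction for cordyceps over vehicle, 63 for sunitinib over vehicle and 66 for cordyceps over sunitinib. Part of these counts was fixed in advance. Changing only the filter on dim probes could not move the 8 genes, and leaving out the streak could not move sunitinib over vehicle. The number of members past 2-fold for cordyceps, 0, became 1 with the median scaling and with the streak left out (SRXN1 in both) and 1 without a filter, where NFE2L2 was compared at background. For sunitinib 0 became 5, all lower, in the unscaled values and 1 without a filter, again NFE2L2. For cordyceps over sunitinib 2 became 5 in the unscaled values. Of the lists, 4 genes past 2-fold for cordyceps became 1 with normexp and 7 without a filter, and 16 for sunitinib became 51 in the unscaled values and 10 with normexp. These counts were within 1.5 times under the other alternatives. Unscaled values keep the difference in brightness between arrays, whose 75th percentiles ran from 78.2 to 165, and normexp with an offset shrinks the ratios of dim probes. For sunitinib normexp also lowered ratios of bright probes, some away from 0. HMOX1 went from −0.50 to −0.81, GCLM from −0.44 to −0.80, FTH1 from 1.08 to 0.68 and TKT from 1.14 to 0.77. The cause of the other changes was not tested. No paired analysis was possible because each condition has 1 array. No replicate could be left out. NFE2L2 could not be measured, and whether its probe fails or its mRNA is low was not tested. Depth of signal limits OSGIN1, whose signal of 28.5 on the sunitinib array was near the lowest detected there, 18.3.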
